A study of Mus musculus with 6 samples.

Results

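The major histocompatibility locus of the mouse was covered by 1058 of the 174638 non-control probes of a tiling array, namely all those whose mm9 position starts inside chr17:34100000-36600000. The array was hybridised with DNA from pancreatic tissue of 12-week-old mouse offspring. Offspring of dams with glucose intolerance gave 3 arrays and offspring of dams with normal glucose tolerance gave the other 3; the labels spell the groups "maternal glucose intorlerance" and "normal glucose torlerance". Each array carried methylated DNA enriched by immunoprecipitation (MeDIP) in Cy5 and the untreated genomic DNA of the same sample (input) in Cy3. The series asks how maternal hyperglycemia goes with DNA methylation in the offspring's pancreas. Strain, sex, the origin of the glucose intolerance and whether samples within a group shared a litter are not given in the sources used here, so the spread behind each p-value is that of these samples and may be technical. Whole tissue was used, so exocrine, islet, vascular and immune cells contribute together, and no marker of any cell type could be checked on these DNA arrays.

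The locus holds the genes by which cells show peptides to T cells. Class I genes are expressed on nearly all nucleated cells and present peptides from inside the cell, class II genes are mostly confined to antigen-presenting cells, and the class III stretch between them carries complement and cytokine genes. In the pancreas, class I molecules on beta cells are known for their part in autoimmune diabetes. Methylated CG dinucleotides are what the MeDIP antibody binds, so the signal of a probe depends on how many CG dinucleotides its fragments hold as well as on their methylation. The probes come with positions and no gene names, and the gene table used here is on another build, so genes are given as background and none is placed on a probe.

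Class I genes arose by repeated duplication, and their promoters show how near the copies are to one another. RefSeq promoters (build GRCm38.p6, the 250 bases before the transcription start) were found for 14 of 16 listed class I genes, 8 of 9 class II genes, 4 of 5 antigen processing genes and 3 of 6 class III genes. Over the 23 class I genes of that table with a promoter, the longest stretch shared letter for letter had a median length of 10 bases across 253 gene pairs. In 6 pairs it reached at least 45 bases, the length of the shortest and of the median probe on the array, and in 4 of those at least 60 bases, the length of the longest probe. The longest were 86 bases between H2-T23 and H2-T-ps, 66 between H2-Q6 and H2-Q7, 65 between H2-M10.3 and H2-M10.5 and 60 between H2-M1 and H2-M9. H2-M10.4 and H2-M10.5 shared 48, and the classical antigen-presenting genes H2-K1 and H2-D1, which lie at opposite ends of the class II and class III stretches, shared 47. Among the 28 pairs of class II genes no stretch was longer than 23 bases. The classical pair and the Q6 and Q7 pair, which encode nonclassical class I molecules, are printed 5′ to 3′ with the stretch shared within each pair in capitals, to show what a probe of 45 bases could and could not tell apart.
H2-K1: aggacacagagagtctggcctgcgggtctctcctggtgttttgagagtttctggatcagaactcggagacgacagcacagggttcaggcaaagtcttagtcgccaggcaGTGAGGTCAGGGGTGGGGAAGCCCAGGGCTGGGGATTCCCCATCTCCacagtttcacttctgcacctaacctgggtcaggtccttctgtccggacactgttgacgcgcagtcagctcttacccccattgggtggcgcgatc
H2-D1: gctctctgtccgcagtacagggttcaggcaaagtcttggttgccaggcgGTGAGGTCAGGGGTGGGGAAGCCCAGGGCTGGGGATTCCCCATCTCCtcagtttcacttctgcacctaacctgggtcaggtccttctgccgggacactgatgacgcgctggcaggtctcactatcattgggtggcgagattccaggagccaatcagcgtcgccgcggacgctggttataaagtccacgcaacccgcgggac
H2-Q6: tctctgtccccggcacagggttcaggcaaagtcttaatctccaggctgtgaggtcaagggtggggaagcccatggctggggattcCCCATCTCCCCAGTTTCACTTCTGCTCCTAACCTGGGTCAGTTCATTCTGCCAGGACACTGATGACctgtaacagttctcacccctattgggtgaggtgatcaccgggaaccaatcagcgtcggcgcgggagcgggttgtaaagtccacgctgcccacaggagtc
H2-Q7: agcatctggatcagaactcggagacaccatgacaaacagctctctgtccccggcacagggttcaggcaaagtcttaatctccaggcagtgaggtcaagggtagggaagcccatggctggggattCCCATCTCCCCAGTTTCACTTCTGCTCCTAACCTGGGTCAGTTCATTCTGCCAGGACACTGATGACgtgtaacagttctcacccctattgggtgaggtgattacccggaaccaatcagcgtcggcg
In the capitals, a probe of 45 bases would match both copies of a pair equally well. The number of CG dinucleotides in these 250 bases was 9 in H2-K1, 14 in H2-D1, 8 in H2-Q6 and 7 in H2-Q7. The median was 5.5 over the listed class I genes, 2 over class II, 11 over antigen processing (Tap1, Psmb8, Psmb9 and Tapbp, which make, transport and load peptides) and 9 over class III (Tnf, Lta and Ltb, all cytokine genes), against 6 over all promoters of the table. Whether any array probe lies in a shared stretch was not tested. The input and MeDIP channels are therefore given apart from their ratio throughout.

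Of the 1058 locus probes, 773 (all but 26.9%) had input signal well above background on every array and were kept, against a loss of 33.6% over all probes. Of the 285 that were left out, 165 were dim in the glucose intolerance group alone, 9 in the normal tolerance group alone and 111 in both, and 32 were dim on all 6 arrays. In the glucose intolerance group 77.5%, 80.6% and 86.6% of locus probes had such input (replicates 1 to 3), and in the normal tolerance group 96.1%, 92.1% and 90.1%. The MeDIP channel was above background for 83.9% to 90.2% on every array, with no separation of the groups. No locus spot was saturated, and 130 of 6348 locus spots were non-uniformity outliers and were treated as missing. The 3 glucose intolerance arrays came from 1 scan with a red photomultiplier setting of 359 V. The normal tolerance arrays came from 2 other scans, replicate 1 alone at 394 V and replicates 2 and 3 at 421 V, with green at 356 V on all. No scan held both groups, so the group difference and the difference between scans cannot be told apart.

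The values reported are the log2 ratio of MeDIP over input and the log2 signal of each channel, each relative to that array's median over non-control probes. Probes lay a median of 213 bp apart, and runs of at least 3 kept probes with starts at most 500 bp apart were averaged into 125 locus regions of 3 to 11 probes, holding 641 probes. Elsewhere 18437 regions were formed by the same rule.

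The locus as a whole lay slightly above the rest of the array in ratio and clearly above it in both channels. The kept locus probes averaged a ratio of -0.01, -0.04 and -0.05 with maternal glucose intolerance and of -0.11, -0.13 and -0.17 with normal tolerance, in order of replicate. All 3 arrays of the first group lay above those of the second, as they also did over all other kept probes. All other kept probes averaged -0.11 ± 0.04 and -0.24 ± 0.05 in the respective groups (SD, n = 3 each), so the locus stood above them by 0.08 ± 0.05 with maternal glucose intolerance and by 0.11 ± 0.05 with normal tolerance. This excess was present on all 6 arrays and ranged from 0.03 to 0.16. In the input channel the locus exceeded the other probes by 0.16 ± 0.03 and 0.18 ± 0.05, and in the MeDIP channel by 0.24 ± 0.04 and 0.29 ± 0.01. The flanks, stretches of equal length on either side on chromosome 17, did not share this level. On the left flank (524 probes, 380 kept) the mean ratio was -0.20 ± 0.02 and -0.28 ± 0.06, with an input much like that of the locus. On the right flank (535 probes, 299 kept) it was -0.45 ± 0.09 and -0.53 ± 0.17, with both channels lower than in the locus on every array. Means over members are given as a description and were not tested.

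Locus regions were more even in ratio than regions elsewhere, as a description that was not tested. Their mean ratio over the 6 arrays had a median of 0.03 and ran from -1.67 to 1.07, with the middle of the distribution between -0.28 and 0.32 (quartiles). Regions elsewhere had a median of -0.03, quartiles of -0.46 and 0.33 and a range of -4.45 to 1.67. Only 3 locus regions (2.40%) had a mean ratio under -1, against 1847 regions elsewhere (10.02%). Across single probes the SD of the ratio was 0.99 in the locus and 1.15 elsewhere. Neighbouring kept probes of the locus were hardly correlated in ratio (r = -0.02 to 0.11 on the 6 arrays), whereas neighbours elsewhere correlated at 0.24 to 0.32; these are correlations across probes, which share array and fragments, and are given as descriptions. Bright input, more than 2 log2 units above the array median, was found at 201 locus probes (19.0%), at 19.1% of left flank probes, at 9.16% of right flank probes and at 14.4% of all other probes. Input and ratio were inversely related across the locus probes (r = -0.23), as they were across all other probes (r = -0.17).

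The ratio was lower towards the end of the locus. In 5 consecutive stretches of 500 kb the glucose intolerance mean was 0.05 ± 0.03, 0.02 ± 0.02, -0.0001 ± 0.05, -0.09 ± 0.02 and -0.19 ± 0.02, and the normal tolerance mean was -0.12 ± 0.10, -0.06 ± 0.0022, -0.08 ± 0.03, -0.20 ± 0.05 and -0.28 ± 0.02 (SD, n = 3 arrays each). The last stretch lay below the first on every array. Mean input was 1.18 in the first stretch and 1.05 in the last, and mean MeDIP signal was 1.11 and 0.77, a wider gap than in the input. The glucose intolerance mean lay above the normal tolerance mean in all 5 stretches, by 0.17, 0.08, 0.08, 0.11 and 0.09. All other kept probes of the array differed by 0.13 in that direction. In order of stretch, input differed by -0.03, 0.10, -0.07, -0.01 and -0.04, and MeDIP signal by 0.01, 0.06, -0.12, -0.03 and -0.08. Only in the first stretch did the MeDIP difference lie above the input difference.

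At a scale of 100 kb, the window starting at 35700000 had the highest mean ratio, 0.31 over 17 probes, and its arrays read 0.40, 0.24 and 0.23 with maternal glucose intolerance and 0.36, 0.37 and 0.22 with normal tolerance. Next came the window at 35500000 (22 probes), with a mean ratio of 0.23, which was also bright in both channels, at 1.62 in input and 1.81 in MeDIP. The lowest were the last 2 windows of the locus, at 36500000 (-0.67, 8 probes) and 36400000 (-0.55, 17 probes). In both of these the input was near the locus average, at 1.13 and 0.94, and the MeDIP signal was low, at 0.41 and 0.34. The window at 34500000 differed from them in that both of its channels were low, at 0.21 in input and -0.29 in MeDIP over 10 probes, which left a ratio of -0.46. Its neighbour at 34600000 (20 probes) had nearly the same ratio, -0.42, from a much brighter input of 1.38, so equal ratios came from unequal channels. The window at 35400000 (19 probes) had the brightest input of all, 1.98, with a MeDIP signal of 1.79 and a ratio of -0.15. Past 35800000, where the ratio was -0.40 over 20 probes, 1 window stood above 0, at 36200000 (0.08, 28 probes). Its arrays were widely spread, with an SD of 0.12 in the glucose intolerance group and 0.22 in the normal tolerance group.

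Among single regions the 4 highest ratios were modest in input and high in MeDIP. The region at chr17:34783966-34784441 (3 probes) had the highest mean ratio, 1.07, with readings of 1.23, 1.24 and 1.35 in the glucose intolerance group and 1.13, 0.64 and 0.82 in the normal tolerance group. Its mean input was 0.57 and its mean MeDIP signal 1.60. Normal tolerance replicate 2, at 0.64, lacked an outlier spot at a probe that read 1.59 and 1.58 on replicates 1 and 3. The other high regions were chr17:36016342-36017014 at 1.01, chr17:36281511-36282380 at 0.94 and chr17:35780578-35781314 at 0.87, with MeDIP signals of 1.81, 1.89 and 1.65. At chr17:36281511-36282380 the arrays ran from 0.58 to 1.28 with maternal glucose intolerance and from 0.60 to 1.29 with normal tolerance. In each group 2 spots were missing there as outliers, so the arrays were averaged over partly different probes. Glucose intolerance replicate 3, at 0.58, lacked a probe that read 1.96 and 1.76 on replicates 1 and 2. These levels depended on which probes a region took in: with dim input kept the first was at 0.37, and with starts up to 1000 bp apart the region at 36016342 became one of 4 probes with a ratio of -0.03.

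The 4 lowest ratios all lay in the last 500 kb stretch. The lowest was chr17:36395417-36395877 (3 probes), at -1.81, -1.11 and -1.66 with maternal glucose intolerance and -1.97, -1.68 and -1.78 with normal tolerance, a mean of -1.67. It was followed by chr17:36327930-36328389 at -1.52, chr17:36598775-36599527 at -1.09 and chr17:36266979-36267516 at -0.99. Their input was 0.87, 0.66, 1.47 and 1.01 in that order, and their MeDIP signal was -0.84, -0.89, 0.34 and -0.01. Locus regions had quartiles of 0.74 and 1.48 in input and of 0.69 and 1.57 in MeDIP signal. All 4 thus lay below the lower quartile in MeDIP signal. In input all but chr17:36327930-36328389, which was lower, lay between the quartiles. In the lowest region only 7 of 9 glucose intolerance spots and 3 of 9 normal tolerance spots had MeDIP signal well above background, and its level was -0.61 after normexp background correction and -1.06 in the authors' deposited table. The other 3 lowest were likewise nearer to 0 there, at -0.69, -0.46 and -0.39 after normexp and -0.99, -0.62 and -0.57 in the authors' deposited table.

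The brightest input belonged to 3 regions, 2 of which were just as bright after immunoprecipitation. At chr17:35456806-35457712 (4 probes) input was 3.28, 2.99 and 3.12 in the glucose intolerance group and 1.98, 3.64 and 2.49 in the normal tolerance group, a mean of 2.92, and the mean MeDIP signal was 2.90. Outlier spots were missing on 2 of 12 normal tolerance spots of that region. At chr17:35516117-35516858 (4 probes) mean input was 2.84 and mean MeDIP signal 2.86. Ratios there were therefore near 0, at 0.03 and 0.06. The third, chr17:34752428-34753949 (6 probes), had an input of 2.77 and a lower MeDIP signal of 2.18, with a ratio of -0.54.

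The groups differed by a small shift that the locus shared with the rest of the array. The mean ratio of the locus was higher with maternal glucose intolerance by 0.10, and the 2 groups of arrays did not overlap. All other probes differed by 0.13 in the same direction, and there too the groups did not overlap (-0.14 to -0.07 against -0.27 to -0.19). The locus relative to them thus differed by -0.02. On that scale the arrays ran from 0.03 to 0.13 with maternal glucose intolerance and from 0.06 to 0.16 with normal tolerance, and overlapped. Mean input of the locus differed by -0.01, with overlapping arrays. Its mean MeDIP signal differed by -0.04, and the groups only just failed to overlap, at 0.977 to 1.0503 against 1.0527 to 1.0759. Over all other probes input and MeDIP signal each differed by 0.01. The higher mean ratio was thus not matched by a difference between the channels, each of which was centred on its own median. The sign of the locus shift is not fixed by these data: it was 0.02 when arrays were centred on the tested probes and -0.05 after loess within arrays, and the median of all regions moved with it, from 0.12 to 0.04 and -0.03.

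No locus feature passed an adjusted p of 0.05 for the ratio in limma with Benjamini-Hochberg adjustment over the whole array. The count was 0 of 772 probes (0.000865% of all tested probes passed, that is 1 probe), 0 of 125 regions (0% of all regions) and 0 of 25 windows (0% of all windows). At an unadjusted p under 0.05, 21 regions were higher with maternal glucose intolerance (16.8%, against 13.3% of all regions) and 4 were lower (3.2%, against 2.51%). This split was 6 higher and 15 lower after loess, where 13.6% of all regions had such a p in either direction. It was 17 and 12 after quantile normalization (18.5% of all regions) and 11 and 9 when centred on the tested probes (12.1%). After normexp background correction it was 46 and 1 (36.1%). For single probes the counts were 72 higher (9.33%, against 10.3%) and 40 lower (5.18%, against 5.5%), and for windows 4 higher (against 16.4% of all windows) and 0 lower (against 2.13%). The arrays of the 2 groups did not overlap in 28 regions that were higher (22.4%, against 17.5% of all regions) and in 9 that were lower (7.2%, against 4.62%). All of these shares lay near those of the whole array. In 81 of 125 regions (64.8%) the glucose intolerance mean was the higher one, against 70.9% of all regions, and the median difference was 0.09 in the locus and 0.12 over all regions. The outcome of the adjusted test varied with the setting. With normexp background correction 15 locus regions passed (11.3% of all regions passed). In the authors' deposited table, whose background treatment is not known, 10 passed (5.71% of all regions). With the replicate number as a block, which left the background as it was, 4.63% of all regions passed. Without normal tolerance replicate 1, 29 locus probes passed (3.43% of all tested probes). Treating scan as a random block left 0 regions past the adjusted threshold and 9 in place of 25 at an unadjusted p under 0.05. Over all regions the latter share was 5.05% in place of 15.8%.

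Higher ratios with maternal glucose intolerance were led by 5 regions, and the groups did not overlap in any of them nor in the 5 that led the lower ratios. All were chosen for the lowest p of this same comparison, so the lack of overlap follows largely from the choice and adds no support. The normal tolerance arrays were spread more widely than the others in 7 of these 10. At chr17:36248134-36248581 (3 probes) the arrays read 0.98, 0.90 and 0.68 with maternal glucose intolerance and 0.38, -0.32 and 0.14 with normal tolerance. All 3 glucose intolerance arrays lay above all 3 others. The difference was 0.79 ± 0.19 (SE), or 1.72-fold, with an adjusted p of 0.219 in limma. All 3 probes were higher, by 0.17 to 0.93. One spot of normal tolerance replicate 2 was an outlier and missing, at the probe with the highest ratio of the region; with outlier spots kept the difference was 0.61. Input differed by -0.51 and MeDIP signal by 0.15, so more of the gap lay in the input channel than in the MeDIP channel.

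Within the first 100 kb of the locus, chr17:34167688-34169793 (8 probes) gave 0.90, 0.55 and 0.73 against 0.27, 0.12 and -0.18, again without overlap. Its difference of 0.66 ± 0.16 (adjusted p = 0.219 in limma) held 1 probe with a difference of 2.42, and the median over its probes was 0.15. In each group 2 spots were missing as outliers, so the group means were taken over partly different probes. With outlier spots kept the difference was 0.42. In the authors' deposited table it was 0.35 with the same spots left out and 0.28 with all spots; other differences from that table leave out the same spots unless stated. Its input was lower with maternal glucose intolerance by 0.47, and its MeDIP signal differed by 0.05.

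The region chr17:34281265-34281978 (4 probes) read -0.36, -0.28 and 0.04 with maternal glucose intolerance and -0.65, -0.91 and -1.25 with normal tolerance. A difference of 0.74 ± 0.18 (adjusted p = 0.219 in limma) again held 1 probe with a difference of 1.94, without which it was 0.33. Here both channels were lower with maternal glucose intolerance, input by 0.80 and MeDIP signal by 0.19. At this region the higher ratio thus went with a lower input signal, and not with more MeDIP signal. The difference was 0.41 with dim input kept and 0.44 with starts up to 1000 bp apart.

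The remaining 2 had the opposite makeup. At chr17:35152954-35153806 (5 probes) the ratio was 0.50, 0.49 and 0.30 against 0.0023, -0.04 and -0.17, and the difference was 0.50 ± 0.12 (adjusted p = 0.219 in limma). At chr17:34880343-34881828 (7 probes) it was 0.11, 0.38 and 0.46 against -0.27, -0.08 and -0.29, and the difference was 0.53 ± 0.14 (adjusted p = 0.219 in limma). Input differed by only -0.05 in both, and MeDIP signal by 0.32 and 0.35. In the first of them the probe with the largest difference (1.23) had ratios between -4.32 and -1.60 and mostly dim MeDIP spots; with such spots set no lower than the dimmest MeDIP spot above background, the difference was 0.27. It was also smaller after loess (0.29), with both channels above background (0.32) and in the authors' deposited table (0.32). In the second, 1 probe was missing as an outlier on glucose intolerance replicates 2 and 3. There 6 of 7 probes were higher and the largest single difference was 1.02. Its difference was 0.34 after normexp, 0.34 after loess and 0.28 in the authors' deposited table.

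Lower ratios with maternal glucose intolerance were led by 5 other regions. At chr17:34441640-34442375 (4 probes) the arrays read -0.85, -0.82 and -1.32 with maternal glucose intolerance and -0.55, -0.44 and -0.30 with normal tolerance, a difference of -0.57 ± 0.17 (SE; adjusted p = 0.233 in limma). Glucose intolerance replicate 3 lacked an outlier spot at the probe that read highest on replicates 1 and 2 (0.40 and 0.30). Its -1.32 is thus a mean over the lower probes, and the group means were taken over partly different probes. MeDIP signal differed by -0.52 and input by 0.18. With dim input kept this region's difference was -0.17, after normexp it was -0.20, with starts up to 1000 bp apart it was -0.22, and in the authors' deposited table it was -0.38, or -0.26 with all spots. At chr17:36035148-36035606 (3 probes) the values were -0.17, -0.22 and -0.17 against 0.21, 0.07 and 0.22, with the glucose intolerance arrays close to one another. All 3 probes there were lower, the difference was -0.36 ± 0.11 (adjusted p = 0.244 in limma), and it lay in the MeDIP channel (-0.57) with input at -0.09. It was -0.18 after normexp and -0.12 with dim input kept.

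Of the other lower regions, chr17:34398877-34400634 (7 probes) read -0.39, -0.42 and -0.47 against -0.17, -0.08 and 0.10, a difference of -0.37 ± 0.12 (adjusted p = 0.246 in limma). There glucose intolerance replicate 3 lacked an outlier spot at a probe that read 0.88 and 0.57 on replicates 1 and 2. The longest of the named regions, chr17:35257362-35260149 (11 probes), read -0.32, -0.32 and -0.37 against -0.13, -0.09 and 0.11, a difference of -0.30 ± 0.12 (adjusted p = 0.290 in limma). In both, input was higher by 0.21 and 0.23 and MeDIP signal lower by 0.29 and 0.20, so the channels differed in opposite directions. At chr17:36422869-36423621 (4 probes) the arrays read -0.59, -0.80 and -0.80 against -0.52, -0.54 and -0.08, and the difference of -0.35 ± 0.16 missed even an unadjusted p of 0.05 (adjusted p = 0.327 in limma). It was the only one of the 5 in which input (0.44) held nearly all of the difference, with MeDIP signal at -0.04, and without normal tolerance replicate 3 it was -0.20. It was -0.12 after normexp, -0.23 in the authors' deposited table and -0.03 with starts up to 1000 bp apart, where it took in 5 probes. At that region a spot of normal tolerance replicate 1 was missing as an outlier. Normexp also brought the regions at 34398877 and 35257362 nearer to 0, to -0.16 and -0.13, and the latter was at -0.10 over the 7 of its probes with both channels above background.

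Differences at single probes were larger than those of regions, and the channels show where they lay. Probe Ch_220697_0055492 (chr17:34167688-34167733) had a ratio of 0.28, 0.34 and 0.70 with maternal glucose intolerance and -1.47, -2.05 and -2.43 with normal tolerance, a difference of 2.42 ± 0.28 (SE; adjusted p = 0.103 in limma). Its input was 1.05, 0.69 and 0.59 against 2.44, 2.48 and 2.73, a difference of -1.77 with an adjusted p of 0.0133 in limma, while MeDIP signal differed by 0.52 (adjusted p = 0.222). Probe Ch_220697_0055545 (chr17:34281470-34281514) followed the same pattern, with input at 0.55, 0.39 and 0.16 against 2.69, 2.49 and 2.89. Its ratio differed by 1.94 ± 0.29 (adjusted p = 0.103) and its input by -2.32 (adjusted p = 0.00760), and its MeDIP signal lay on the other side, at -0.51. Probe Ch_220697_0055731 (chr17:34753084-34753128), inside the bright region at 34752428, differed by 1.204 ± 0.24 in ratio and by -1.66 in input (adjusted p = 0.0271). The fourth, Ch_220697_0055775 (chr17:34880562-34880606), was the one of these 4 in which MeDIP signal (0.60) differed by more than input (-0.29), and its ratio differed by 1.02 ± 0.21. After normexp the ratio differences of these 4 probes were 1.97, 1.52, 1.15 and 0.48, and in the authors' deposited table they were 1.24, 1.32, 0.79 and 0.33.

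In the lower direction the MeDIP channel took the larger part at 2 of 4 probes. At Ch_220697_0055921 (chr17:35184233-35184279) the ratio was -2.60, -2.45 and -2.26 with maternal glucose intolerance and -0.9996, -0.85 and -0.27 with normal tolerance, a difference of -1.73 ± 0.25 (adjusted p = 0.103 in limma). MeDIP signal was -1.91, -1.71 and -1.65 against -0.41, -0.40 and -0.50, a difference of -1.32 with an adjusted p of 0.0143 in limma, and input differed by 0.54 (adjusted p = 0.194); 2 of 3 glucose intolerance arrays had this probe's MeDIP spot well above background. At Ch_220697_0056246 (chr17:35838075-35838124) the ratio differed by -1.49 ± 0.26 (adjusted p = 0.111) and MeDIP signal by -0.88 (adjusted p = 0.0277), with input at 0.74. Probe Ch_220697_0055896 (chr17:35119341-35119385) was the reverse: its input was 2.59, 2.50 and 2.57 against 1.61, 1.40 and 0.95, a difference of 1.24 with an adjusted p of 0.0200 in limma, and its MeDIP signal was 0.21 higher. At Ch_220697_0055988 (chr17:35257362-35257409) a ratio difference of -1.28 ± 0.29 was shared by input (0.73) and MeDIP signal (-0.68). These 4 ratio differences were nearer to 0 elsewhere: in the order given they were -0.63, -0.88, -0.48 and -0.58 after normexp and -0.77, -0.60, -0.38 and -1.09 in the authors' deposited table.

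Taken over the 72 locus probes with a higher ratio at an unadjusted p under 0.05, the input difference was the larger of the pair at 36 (50%), against 48.2% of such probes on the whole array. Over the 40 with a lower ratio it was the larger at 13 (32.5%, against 35.2%). Channel makeup in the locus was thus close to that of the whole array in both directions.

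Single channels gave calls where the ratio gave none, in limma with adjustment over the whole array. In input, 33 locus probes were higher with maternal glucose intolerance (against 4.66% of all tested probes) and 47 were lower (against 5.04%), which is 4.27% and 6.09% of 772. In the MeDIP channel 30 were higher (3.89%, against 5.05%) and 66 were lower (8.55%, against 6.77%). At 34 probes both channels passed, and at all 34 they moved in the same direction. Over the whole array both passed at 4735 of 115649 probes, in the same direction at 4721 of them. Called input differences ran from -2.32 to 1.73 and called MeDIP differences from -2.11 to 1.76, with median sizes of 1.145 and 1.098. Ch_220697_0056227 (chr17, start 35786959) was one of these: input differed by -1.22 (adjusted p = 0.0185) and MeDIP signal by -1.60 (adjusted p = 0.0126), and the ratio by -0.26 (adjusted p = 0.575). Called probes were spread over the locus, with input calls in 21 and MeDIP calls in 24 of the 25 windows. At the level of regions 0 of 125 passed in input (0.097% of all regions passed) and 0 in MeDIP (0% of all regions).

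These channel calls varied with which arrays were used and with how the scan was treated. With scan as a random block 0 of 772 probes passed in input and 0 in MeDIP (0% of all probes in each). No scan held both groups, so this setting cannot separate the scan from the group. Without any one of the 3 glucose intolerance arrays 0 passed in either channel (0% of all tested probes in each). Without normal tolerance replicate 2 the MeDIP count was 13 (1.97% of all tested probes passed). In input 6.85% of all tested probes passed in that setting. Without normal tolerance replicate 3 the locus count was 1 in input (0.0286% of all tested probes passed) and 6 in MeDIP (1.08%). Without normal tolerance replicate 1 it was 249 in input (31.5% of all tested probes passed) and 250 in MeDIP (33.5%).

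For whole windows, the first of the locus, at 34100000 (47 probes), had a ratio of 0.35, 0.21 and 0.33 with maternal glucose intolerance and 0.14, -0.09 and -0.08 with normal tolerance, a difference of 0.31 ± 0.10 (SE; adjusted p = 0.215 in limma). It holds the region and the probe at 34167688 described above. The window at 34800000 (12 probes) had 0.22, 0.34 and 0.42 against 0.07, 0.05 and -0.04, a difference of 0.30 ± 0.09 (adjusted p = 0.209 in limma). In the first the difference went with a lower input (-0.20), and in the second with a higher MeDIP signal (0.21). Only 2 windows had a lower mean ratio with maternal glucose intolerance: 36400000, by -0.19 ± 0.18 with overlapping arrays, and 35700000, by -0.02 ± 0.09. After normexp background correction these differences were 0.0016 and 0.03, so their direction was not settled. In the remaining 23 windows the glucose intolerance mean was the higher one, with a median difference over all 25 of 0.10 against 0.13 over all windows of the array.

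Arrays resembled each other across the 125 locus regions more closely in one group than in the other. Ratios correlated at r = 0.92 between glucose intolerance arrays, at 0.78 to 0.87 between normal tolerance arrays and at 0.69 to 0.91 between groups. Regions of 1 array are not replicates of each other, and the glucose intolerance arrays also shared a scan.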

How the data were processed

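The members, lists and alternatives were chosen with earlier results of these data known. Per the labels' protocols, MeDIP DNA carried Cy5 and input DNA Cy3. The deposited scanner files hold a spot intensity for each dye, background-subtracted and dye-normalized by Agilent Feature Extraction 11.0.1.1 with positions on mm9, per the file headers, and a log10 ratio used as a check. The authors' deposited series table is on a log2 scale; its background treatment, normalization and any smoothing are not given in the sources used here, and it served as an alternative.

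The processed intensities were turned into log2 MeDIP, log2 input and their log2 ratio, each centred on the median of the 174638 non-control probes of its array, without loess or quantile normalization. Outlier spots were set to missing, and a probe was kept where input was well above background on all 6 arrays. Probes, regions and windows of 100 kb were fitted over the whole array in R 4.3.3 by limma 3.58.1 (lmFit, eBayes), checked on simulated data, and adjusted with Benjamini-Hochberg at 0.05 (115649 probes, 18562 regions and 11041 windows). Differences are glucose intolerance minus normal tolerance. In the main setting, MeDIP minus input differences fall short of ratio differences by the same amount for every feature, each being centred on its own median. That amount is close to the ratio difference of all other probes (0.13). Named in each direction were the 5 regions and 4 probes of lowest p, besides the 4 regions of highest and of lowest ratio, the 3 of brightest input and the 2 windows of each kind (lowest p in each direction, highest and lowest ratio). Further probes and windows in the text were chosen after their values were seen. Alternatives covered background correction, normalization, centring, filters, outlier spots, dim MeDIP spots, scan, replicate number, each array left out and the size of regions and windows. The normexp correction used median signals, the columns at hand. The number of arrays limits the precision. No protein sequences were compared.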

Additional observations from a re-analysis of the deposited data

How the results depend on the processing

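The mean ratio difference of the locus, 0.10, was 0.176 after normexp background correction and 0.0225 after quantile normalization. It was 0.0223 when centred on the tested probes and turned to -0.0465 after loess. Taken beyond all other probes, the difference moved from its main value by less than the arrays' spread under every alternative run. Over arrays left out the mean ratio difference of the locus ran from 0.09 to 0.12, and beyond all other probes from -0.05 to 0.0048. The median difference of all regions, 0.12 in the main setting, was 0.17 after normexp, 0.04 after quantile normalization, 0.04 when centred on the tested probes and -0.03 after loess. At an unadjusted p under 0.05 the split of locus regions was 21 higher and 4 lower in the main setting (15.8% of all regions in either direction). It was 46 and 1 after normexp (36.1% of all), 6 and 15 after loess (13.6%), 17 and 12 after quantile normalization (18.5%) and 11 and 9 when centred on the tested probes (12.1%). Normexp gave a mean input difference of -0.21 and a mean MeDIP difference of -0.0849, and centring on the tested probes gave a MeDIP difference of 0.0026.

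For the ratio, adjusted calls among locus probes were 52 after normexp (6.26% of all probes passed), 6 after quantile normalization (1.52%), 3 with both channels above background (0.223%) and 40 with the authors' deposited values (4.92%). Among regions they were 15 after normexp (11.3% of all regions) and 10 with the authors' values (5.71%), and among windows 8 after normexp (2522 of 11041 on the array). With the replicate block, 22 probes (3.94% of all) and 4 regions (4.63% of all) passed. Deviations from the group means correlated between arrays of the same number at r = 0.57, 0.54 and 0.04 over all regions. Over the locus regions these correlations were 0.365, 0.353 and -0.056. The main setting did not treat the numbers as pairs, and whether same-numbered arrays shared a step was not tested. At an unadjusted p under 0.05, locus probes counted 220 after normexp (28.4% of all probes), 238 with the authors' values (28.6%) and 37 with scan as a random block (5.13%). The region count was 47 after normexp (36.1% of all regions), 38 with the authors' values (29.2%), 9 with scan as a random block (5.05%) and 11 with at least 5 probes a region (16.4%). The window count was 13 after normexp (45.6% of all windows), 7 with the authors' values (31.3%) and 2 with both channels above background (18.4%). It was 1 when centred on the tested probes (11.4%), 0 after loess (11.8%), 0 with scan as a random block (6.39%) and 2 in windows of 250 kb (20.4%).

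In input, normexp gave 148 probes (16.8% of all), 23 regions (15.8% of all) and 7 windows at an adjusted p under 0.05, centring on the tested probes gave 1 region (0.884%), no filter on dim input gave 1 region (1.09%), and outlier spots kept gave 8 regions (5.22%). In the MeDIP channel, outlier spots kept gave 5 regions (4.45%). With scan as a random block 0 probes passed in either channel. Leaving out single arrays, adjusted ratio calls ran from 0 to 29 probes (0% to 3.43% of all). Unadjusted ones ran from 65 to 223 probes (8.84% to 28.5% of all), 12 to 41 regions (8.44% to 28.3%) and 0 to 5 windows (9.69% to 27.6%). The input calls ran from 0 to 249 probes (0% to 31.5% of all) and 0 to 18 regions (0% to 10.4%). The MeDIP calls ran from 0 to 250 probes (0% to 33.5%) and 0 to 9 regions (0% to 7.69%). The highest of these counts came without normal tolerance replicate 1.

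The window at 35700000 turned from -0.0235 to 0.0293 after normexp and 0.1096 with no filter on dim input, and ran from -0.0779 to 0.0064 over arrays left out, above 0 when glucose intolerance replicate 2 or 3 or normal tolerance replicate 2 was left out (0.0011, 0.0064 and 0.0022). The window at 36400000 turned from -0.19 to 0.0016 after normexp. The region at 36016342 turned from 1.01 to -0.0272 with starts up to 1000 bp apart, where it took in other probes. The 10 regions and 8 probes named for their group difference kept its direction under every alternative run. They were chosen for the lowest p in these same arrays, so this is no independent support. Of their results, 12 of 185 for regions and 32 of 135 for probes passed the adjusted threshold. Over the whole array, up to 11.3% of regions and 6.26% of probes passed under an alternative, in each case after normexp. Other causes of these shifts were not tested. Input signal over background, weaker in the glucose intolerance group, limits how many locus probes can be read.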
